A study of Mus musculus with 18 samples.

Results

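Heavy polysome RNA of Fmr1 knockout (KO) brain slices was compared with that of wild-type (WT) slices, in 6 of the 18 libraries of the series: 3 KO and 3 WT. The members were all libraries of the heavy fraction, taken by their labels and not by any measured value. Slices of hippocampus and cortex came from male C57BL/6N mice at postnatal day 28 to 35, either Fmr1 KO or WT littermates, the KO line having been backcrossed on C57BL/6 for more than 10 generations. Incubation of every slice lasted 30 min, either with the vehicle DMSO alone or with homoharringtonine (HHT) at 20 µM, a drug that stops newly assembled ribosomes at the start codon while elongating ribosomes run off. Each genotype gave 2 HHT libraries and 1 vehicle library, so that treatment was balanced between genotypes. Each library held RNA of 10 pooled slices from 2 or 3 mice, cleared of debris before 1% NP-40 was added and sedimented through a 15 to 45% sucrose gradient. Per the labels' protocols, the fractions pooled as heavy were picked by the FMRP signal on immunoblots; the sources used here do not give how this was done for KO gradients, nor which part of Fmr1 the KO allele disrupts. No cell type was selected.

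Fmr1 encodes FMRP, an RNA-binding protein that associates with polysomes in neurons and binds the coding region of many long neuronal mRNAs; its loss causes fragile X syndrome. mRNAs that carry many ribosomes sediment deep into a sucrose gradient, so the heavy fraction should hold such mRNAs. Sedimentation does not show that every RNA in this fraction carried ribosomes. Nuclear noncoding RNAs such as Peg13 and Rian were also measured there. In the HHT libraries, the fraction was taken after elongating ribosomes had time to run off. Sedimentation alone does not tell how densely ribosomes are packed or whether they are stalled. The amount of an mRNA found in the heavy fraction depends both on its level in the cell and on its ribosome load. FMRP has been described as a repressor of translation that slows elongating ribosomes.

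The comparison asks which mRNAs differ in heavy polysomes when FMRP is missing. Total estimated counts ran from 6226237 to 11008211 per heavy library, and 13731 of 13973 genes passed the filter on low counts. In log2 counts per 1000000 (CPM), correlations across genes were 0.990 to 0.993 among the 4 HHT libraries and 0.993 between the KO and WT vehicle libraries, against 0.921 to 0.947 between HHT and vehicle libraries. The SD over genes of the KO minus WT difference in log2 CPM was 0.266, 0.325 and 0.275 for HHT 1, HHT 2 and vehicle. Between the 2 HHT libraries of one genotype the SD was 0.276 in KO and 0.305 in WT, so the genotypes differed over genes about as much as libraries of the same group did.

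With treatment as a covariate, 4 of 13731 genes passed an adjusted p of 0.05 in edgeR's quasi-likelihood test with Benjamini-Hochberg adjustment (0.0291%). Fmr1 fell, while Lrch4, Gm7120 and the alpha-globin gene Hba-a2 rose in KO. All other genes stayed above the threshold, with 512 genes at an unadjusted p under 0.05 higher in KO (3.73%) and 452 lower (3.29%). Whatever their p, the 3 KO libraries lay wholly above the 3 WT libraries for 242 genes (1.76%), and wholly below them for 263 genes (1.92%). The median log2 fold change over all genes was 0.00. Replicate numbers in the labels are not said to mark shared preparations, and p-values measure the spread between these 6 pools.

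Fmr1 (chromosome X, 68678541 to 68717963, mm10, + strand) was the targeted gene and had the smallest p of all genes. In KO heavy polysomes it held 5.8 CPM in HHT 1, 4.05 in HHT 2 and 4.85 in vehicle. In WT it held 12.2, 16.3 and 22.6 CPM. All 3 KO libraries lay below all 3 WT libraries, and the highest WT value was that of the vehicle library. The mean was 4.90 ± 0.876 CPM in KO and 17.0 ± 5.23 in WT (SD, n = 3 each). The log2 fold change of Fmr1 was -1.76 ± 0.20 (SE, adjusted p = 0.00638). KO libraries still held 57.4, 45 and 36.7 estimated counts of the gene, against 92.7, 170 and 135 in WT, so Fmr1 transcripts were reduced and not absent. Fmr1 differed by -1.79 ± 0.17 in medium polysomes (adjusted p = 0.00407) and by -1.87 ± 0.24 in input, the cleared lysate before the gradient (adjusted p = 0.305). Within lysates, the KO effect on Fmr1 in heavy polysomes minus that in input was 0.14 ± 0.26 (adjusted p = 0.976).

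Fxr1 and Fxr2, the FMRP paralogs that also bind ribosomes, overlapped between the genotypes. Fxr1 held 23, 23.4 and 54.9 CPM in KO and 20.9, 32.7 and 52 in WT, a log2 difference of -0.12 ± 0.14 (adjusted p = 0.883). Fxr2 held 157, 181 and 243 CPM in KO and 168, 179 and 258 in WT, a difference of -0.05 ± 0.08 (adjusted p = 0.906). On the authors' deposited per-length scale, the WT means were 12.2 for Fmr1, 50.6 for Fxr1 and 214 for Fxr2. Of 16 paralogs and binding partners of FMRP, 0 had an unadjusted p under 0.05 in either direction, and their median log2 fold change was 0.00. Setd2, the H3K36 methyltransferase, held 82.7, 98.8 and 88.5 CPM in KO and 75.5, 98.1 and 66.9 in WT, with overlapping groups and a difference of 0.17 ± 0.12 (adjusted p = 0.776).

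The calls depended on which libraries were kept: without KO HHT 2, KO vehicle, WT HHT 2 or WT vehicle, 0 genes passed. Leaving out either vehicle library gives the other to the treatment term, so both such fits rest on the HHT libraries alone. They are not separate checks. Without the KO HHT 2 library Fmr1 stood at -1.69 (adjusted p = 0.102). Without the KO vehicle library it stood at -1.55 (adjusted p = 0.163), and without the WT vehicle library at -1.55 (adjusted p = 0.185). Without the WT HHT 2 library it was -1.68 (adjusted p = 0.0719). The size of the Fmr1 difference moved little in these fits while the adjusted p crossed the threshold. Without KO HHT 1, Fmr1 and Hba-a2 passed, and without WT HHT 1 all 4 passed among 9 genes.

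**Figure D1:**
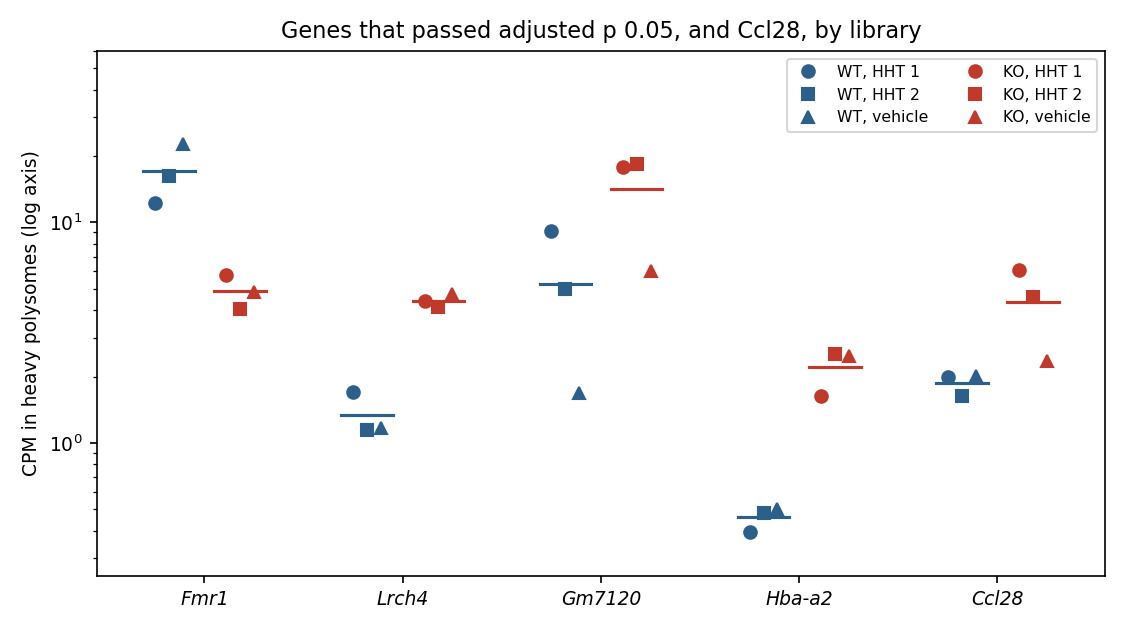
CPM (log axis) of the 4 genes past adjusted p 0.05 and of Ccl28 in each of the 6 heavy libraries; blue points are WT, red points KO, the symbol gives the library and the line the mean of 3. Fmr1 falls from a WT mean of 17.0 to a KO mean of 4.90 CPM, the other genes are higher in KO, and only for Gm7120 do the genotypes overlap.

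Lrch4, a membrane-associated protein with leucine-rich repeats and a calponin homology domain (chromosome 5, 137629121 to 137641099, + strand), rose in KO heavy polysomes. It held 4.38, 4.14 and 4.72 CPM in KO HHT 1, HHT 2 and vehicle, and 1.71, 1.15 and 1.17 in WT. The groups did not overlap, and the log2 fold change of Lrch4 was 1.70 ± 0.23 (adjusted p = 0.0275). Its counts were low, at 42.6, 46 and 35.6 in KO and 12.7, 12.2 and 6.53 in WT. DESeq2 did not call it (adjusted p = 0.128). Leaving out any 1 library kept Lrch4 between 1.57 and 1.92, but the call held only without WT HHT 1 (adjusted p = 0.00798), and was farthest from the threshold without WT HHT 2 (adjusted p = 0.302).

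In input Lrch4 stood the other way round. On one scaling of all 18 libraries, input held 1.58, 2.15 and 1.35 CPM in KO and 4.86, 5.54 and 3.06 in WT. Every KO input library was below every WT one, and the log2 difference was -1.37 ± 0.22 (adjusted p = 0.449). In medium polysomes the genotypes overlapped, at 5.12, 5.53 and 6.08 CPM in KO and 5.48, 3.7 and 6.34 in WT. Within lysates, the KO effect in heavy polysomes exceeded that in input by 3.07 ± 0.33 (log2, adjusted p = 0.0265), and Lrch4 was the only one of 13970 genes to pass this test (0.00716%). The call was lost without the KO vehicle lysate, the WT vehicle lysate or the WT HHT 2 lysate, each of which left 0 genes. The fits without a vehicle lysate both rest on the HHT lysates alone and are not separate checks.

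Lrch4 overlaps a second gene model on the same strand, Gm20605 (137629175 to 137642899), which covers nearly all of it. Gm20605 took most of the counts of this locus and lay the other way. In heavy polysomes it held 16.3, 20.8 and 13.5 CPM in KO and 21.9, 22.5 and 16.8 in WT, on the same scaling. Summed over both models, heavy polysomes held 21.3, 25.5 and 18.7 CPM in KO and 23.8, 23.8 and 18.1 in WT, and the groups overlapped. The input sums were 17.2, 19 and 14.6 CPM in KO against 18, 16.5 and 14.4 in WT, which also overlapped. Lrch4 took 18.5 to 28.1% of the heavy sum in KO and 5.48 to 8.18% in WT, while in input it took 9.21 to 11.4% in KO and 21.3 to 33.6% in WT. The sums varied more between libraries than Lrch4 alone differed between genotypes, so their overlap does not show that Lrch4 was alike. The part of read assignment between the models was not tested. Reads shared by the models cannot be told apart in the deposited counts, so the values of Lrch4 alone are uncertain.

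**Figure D2:**
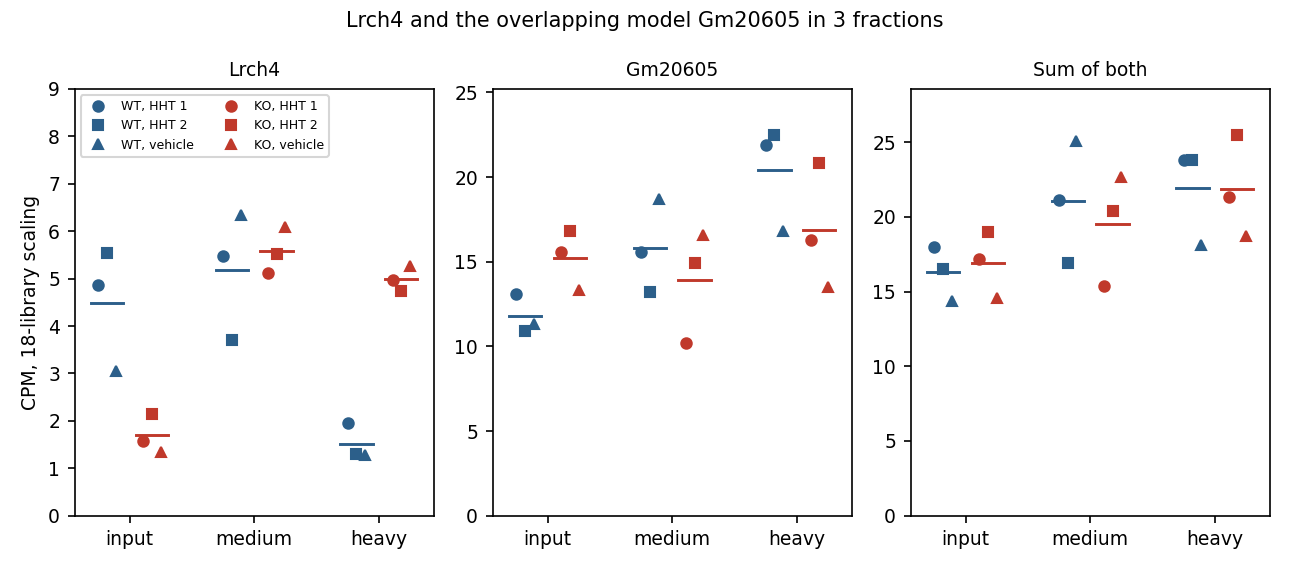
CPM of Lrch4, of the overlapping same-strand model Gm20605 and of their sum in input, medium and heavy libraries, WT in blue and KO in red, with lines at the means of 3 libraries. Lrch4 separates the genotypes in opposite directions in input and heavy polysomes, while the sums of both models overlap in every fraction.

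Gm7120, now named Tmem267 and coding for a transmembrane protein (chromosome 13, 119488039 to 119611059, + strand), rose in KO heavy polysomes. KO libraries held 17.9, 18.4 and 6.03 CPM and WT libraries 9.09, 4.98 and 1.68, in the order HHT 1, HHT 2 and vehicle. The vehicle libraries were low in both genotypes, so the ranges overlapped, although KO exceeded WT within HHT and within vehicle. The log2 fold change of Gm7120 was 1.47 ± 0.21 (adjusted p = 0.0275), and DESeq2 called it too (adjusted p = 0.00036). The difference was of the same size elsewhere, at 1.44 ± 0.16 in medium polysomes (adjusted p = 0.00751) and 1.44 ± 0.22 in input (adjusted p = 0.449). Heavy minus input was -0.02 ± 0.24 (adjusted p = 0.997). The adjusted p rose above the threshold without any single library other than WT HHT 1, and was highest without WT HHT 2 (adjusted p = 0.302).

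Ccl28, a chemokine of mucosal tissues, starts 12760 bases beyond the end of Gm7120 on the same strand (119623819 to 119654359) and was also higher in KO. It held 6.11, 4.6 and 2.36 CPM in KO and 1.98, 1.63 and 2.01 in WT. All KO libraries lay above all WT libraries, the vehicle pair by the least. The difference was 1.28 ± 0.27 (adjusted p = 0.393) and did not pass. Ccl28 was named after its values were seen.

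Among 7 neighbours of Gm7120 tested within 300 kb, 2 had an unadjusted p under 0.05, Ccl28 and Nnt, the mitochondrial transhydrogenase. The shares of all genes at that level were 3.73% higher and 3.29% lower. Nnt held 27, 25.1 and 31.9 CPM in KO and 21.9, 21.9 and 26.1 in WT, a difference of 0.26 ± 0.11 (adjusted p = 0.67). The other 5, from Paip1 to Zfp131, lay between -0.11 and 0.05. Within the same distance of Lrch4, 16 neighbours lay between -0.35 and 0.41 and 0 had an unadjusted p under 0.05, and the 8 neighbours of Hba-a2 lay between -0.17 and 0.33, also with 0. A further gene, 3110070M22Rik, overlaps the start of Gm7120 on the opposite strand; it was under the count filter, with 1.02, 1.71 and 1.05 CPM in KO and 0.527, 0.574 and 0.67 in WT. The library kit keeps strand, but the sources used here do not say whether the counting used it, so reads of this pair cannot be told apart.

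The 250 bases upstream of the RefSeq start (GRCm38.p6) are shown for the targeted gene and for the 2 neighbours on chromosome 13 that stood higher together. Capitals mark GC boxes (GGGCGG or its reverse complement) and E-boxes (CACGTG), searched on both strands.
Fmr1 (chrX:68678291-68678540, + strand): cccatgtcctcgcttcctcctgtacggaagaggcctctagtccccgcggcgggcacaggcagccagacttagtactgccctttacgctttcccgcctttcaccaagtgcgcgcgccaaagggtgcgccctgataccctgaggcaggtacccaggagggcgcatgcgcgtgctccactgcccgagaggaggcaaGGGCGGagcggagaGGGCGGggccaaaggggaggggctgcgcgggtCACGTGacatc
Tmem267 (Gm7120, chr13:119487836-119488085, + strand): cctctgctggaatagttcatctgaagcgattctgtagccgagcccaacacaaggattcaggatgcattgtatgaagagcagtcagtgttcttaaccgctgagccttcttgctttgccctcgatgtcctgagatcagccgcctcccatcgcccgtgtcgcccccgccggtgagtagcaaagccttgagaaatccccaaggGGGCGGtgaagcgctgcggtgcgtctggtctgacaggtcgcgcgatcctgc
Ccl28 (chr13:119623569-119623818, + strand): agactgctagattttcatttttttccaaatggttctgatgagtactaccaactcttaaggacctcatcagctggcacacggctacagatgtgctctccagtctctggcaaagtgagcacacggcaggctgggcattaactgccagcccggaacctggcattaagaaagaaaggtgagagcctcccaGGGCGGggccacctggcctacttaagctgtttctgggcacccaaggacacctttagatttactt
The Fmr1 window held 2 GC boxes and 1 E-box, and the Tmem267 and Ccl28 windows held 1 GC box each and 0 E-boxes. Of 27025 mouse promoter windows of this length, 32.9% held a GC box and 6.05% an E-box. The shared GC box of the neighbours is thus a common feature, and the match is a description of the letters only.

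Hba-a2, an alpha-globin gene of red blood cells (chromosome 11, 32296489 to 32297298, + strand), rose in KO from a very low level. KO libraries held 1.63, 2.52 and 2.49 CPM and WT libraries 0.395, 0.479 and 0.503. The groups did not overlap, and the log2 fold change of Hba-a2 was 2.23 ± 0.32 (adjusted p = 0.0275; adjusted p = 0.485 with DESeq2). Summed counts were 64 in KO and 10 in WT, a depth-scaled ratio of 5.38 with an exact 95% interval of 2.74 to 11.8 that covers counting error only. Without the KO HHT 2 library the log2 fold change was 1.99 (adjusted p = 0.153), without KO vehicle 2.21 (adjusted p = 0.219), without WT HHT 2 2.32 (adjusted p = 0.302) and without WT vehicle 2.21 (adjusted p = 0.251). Hbb-bs, the beta-globin gene, fell under the count filter in heavy polysomes; its summed counts were 38 in KO and 9 in WT, a ratio of 3.55 (exact 95% interval 1.69 to 8.35).

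Hba-a2 was also higher in KO before the gradient. Input libraries held 5.96, 15.7 and 7.87 CPM of Hba-a2 in KO and 1.27, 1.17 and 1.92 in WT, on the 18-library scaling. Hbb-bs was one of 3 genes called in medium polysomes by the same model, with Fmr1 and Gm7120 (3 of 13939, 0.0215%). Of 9 blood markers listed, these 2 were measured, and the other 7, among them Alas2 and Slc4a1, were not analysed here. Mice were perfused before slicing, per the labels' protocols, and the part of residual blood in this difference was not tested. Alpha-globin has near-identical copies, and how reads were divided between them is uncertain. In bulk tissue, fewer cells of a type and less RNA per cell cannot be told apart, here or for the markers below. Values in heavy polysomes depend on ribosome load as well.

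mRNAs reported as bound by FMRP in mouse brain were mostly a little higher in KO heavy polysomes, and none passed the adjusted threshold. Of 55 tested members of 56 listed, 44 had a log2 fold change above 0 (80%), against 51% of all genes. Leaving aside blood markers, shares in the other lists ran from 23.8% (oligodendrocyte markers) to 90.9% (oligodendrocyte precursor markers). Astrocyte markers had 84.2%, endoplasmic reticulum folding genes 77.1% and autism risk genes 75.5%, so a high share was not particular to this list. The median of the FMRP-bound list was 0.09, and its members ranged from -0.11 to 0.62. At an unadjusted p under 0.05, 10 were higher (18.2%, against 3.73% of all genes) and 0 lower. Summed over members, KO libraries held 49384, 52219 and 32556 CPM and WT libraries 50675, 50321 and 29364, so the sums overlapped.

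The NMDA receptor subunits Grin2a and Grin2b led the list. Grin2a held 108, 109 and 19 CPM in KO and 78, 58.8 and 13.9 in WT. HHT libraries stood far above vehicle libraries in both genotypes, and KO exceeded WT within each treatment. The log2 difference was 0.62 ± 0.12 (adjusted p = 0.281). DESeq2 gave Grin2a an adjusted p of 0.0296 at the same size. Grin2b held 111, 117 and 15.6 CPM in KO and 92.3, 75.8 and 12.9 in WT, a difference of 0.41 ± 0.10 (adjusted p = 0.588). Cacna1e, a voltage-gated calcium channel pore subunit, held 559, 601 and 84.6 CPM in KO and 491, 430 and 72.1 in WT, a difference of 0.31 ± 0.08 (adjusted p = 0.593).

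The others included the chromatin proteins Trrap and Chd8, the clathrin heavy chain Cltc, the kinase Mtor, the autophagy scaffold Wdfy3 and the myosin Myo5a. Their differences lay between 0.19 and 0.26. For example, Cltc held 1084, 1152 and 1084 CPM in KO and 991, 1069 and 784 in WT, and the lowest value was that of the WT vehicle library. Of the 10, 9 were higher in KO in HHT 1, HHT 2 and vehicle alike, each compared with the WT library of the same label. Those 10 were chosen by p and direction in these same libraries, so this is largely fixed by the choice. Of all 55, 19 were higher in each of these comparisons (34.5%), against 16.2% of all genes.

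**Figure D3:**
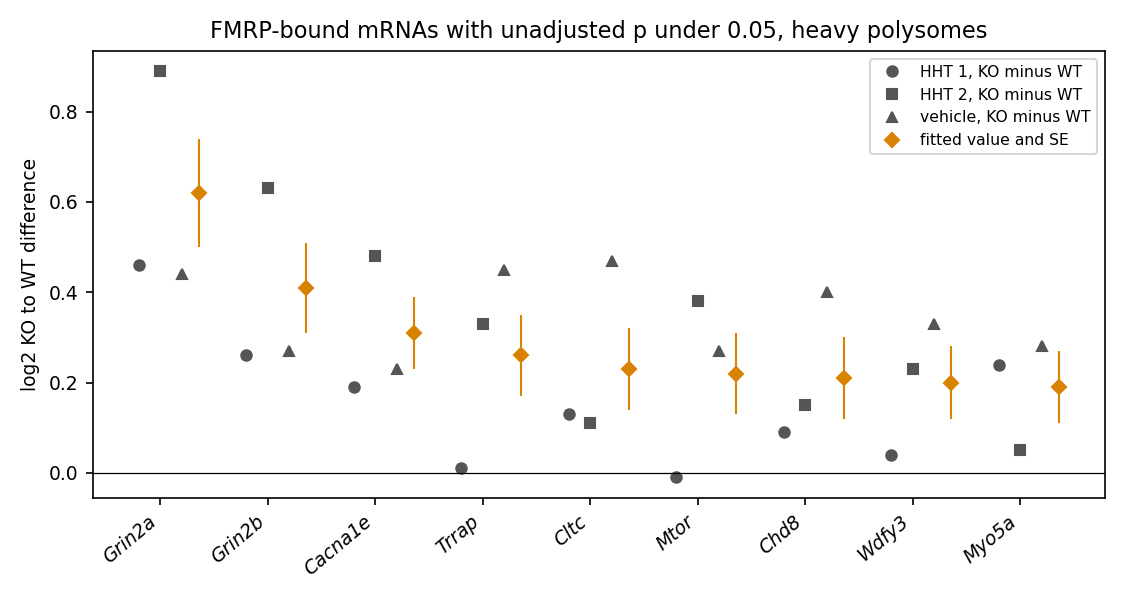
KO minus WT log2 CPM differences between libraries of the same label (grey) and the fitted log2 fold change with its SE (orange) for 9 of the 10 FMRP-bound mRNAs with an unadjusted p under 0.05; the numbers 1 and 2 do not mark shared preparations. Grin2a lies highest at 0.62, and for Trrap, Cltc, Chd8, Wdfy3 and Myo5a the vehicle difference is the largest of the 3; 1 member is not shown because its values are not reported here.

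The difference was larger between the vehicle libraries than between the HHT libraries. The list median of the KO minus WT difference was 0.01 for HHT 1, 0.07 for HHT 2 and 0.20 for vehicle, against 0.00, -0.00 and 0.01 over all genes. Leaving out the KO vehicle library, or else the WT vehicle library, left 3 members higher at an unadjusted p under 0.05. Over all genes, 386 of 13886 and 381 of 13876 were higher at that level in these fits. Both fits rest on the HHT libraries alone, so they are not separate checks. In the test of genotype × treatment, the median over members was -0.14, against -0.02 over all genes; 0 of 13848 genes passed that test by edgeR or DESeq2, with 273 at an unadjusted p under 0.05 by edgeR. Each vehicle group was 1 library, so the vehicle difference has no replicate of its own.

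FMRP-bound mRNAs have long coding sequences, with a median of 7104 nt against 1455 nt over all genes, and 54 of the 55 fell in the longest of 5 classes of equal size (2622 nt and above). Of these 54, 10 were higher at an unadjusted p under 0.05 and their median log2 fold change was 0.10. The other 2611 genes of that length class had 124 higher (4.75%) and a median of 0.01. Medians by coding length, from the shortest to the longest class, were 0.02, 0.01, 0.00, -0.02 and 0.02, all close to 0. Between the vehicle libraries the longest class had the highest median, 0.05, and the other classes lay between -0.03 and 0.03. That class starts well below the median length of the FMRP-bound mRNAs, so it is not matched to them in length. The part of coding length was not tested. Within lysates, the median of the KO effect in heavy polysomes minus that in input was 0.03 for the FMRP-bound list and -0.01 for all genes.

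**Figure D4:**
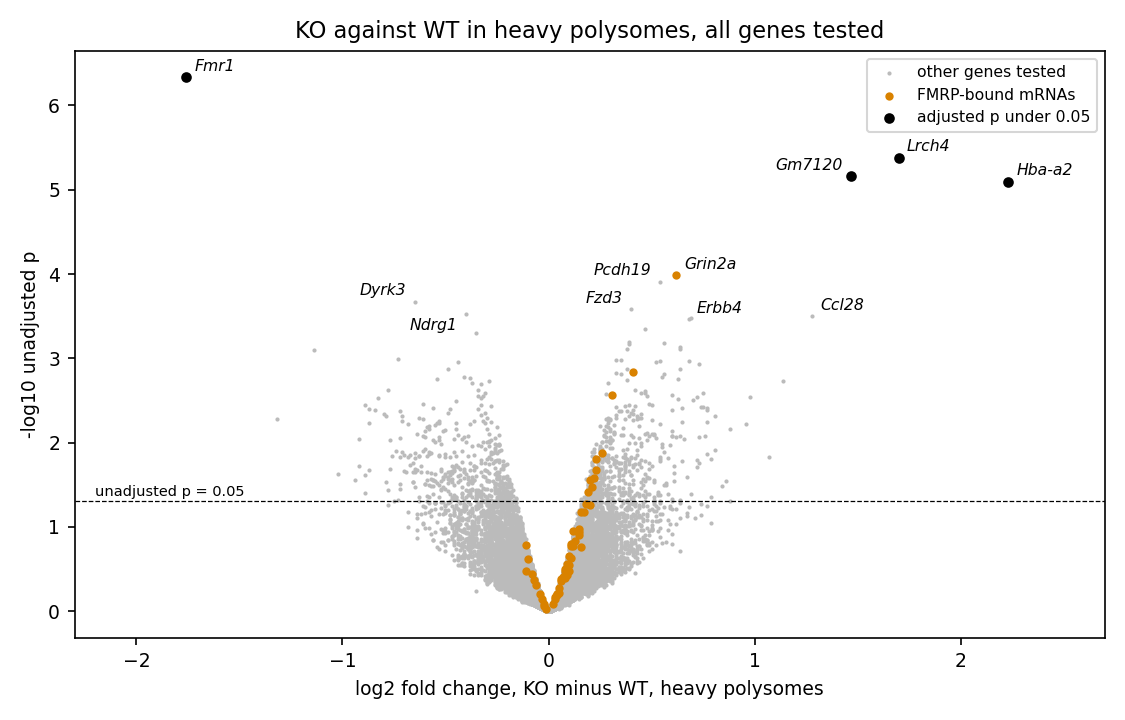
Fitted log2 fold change (KO minus WT) against -log10 unadjusted p for 13731 genes in heavy polysomes; black points passed adjusted p 0.05 and orange points are 55 FMRP-bound mRNAs. The 4 called genes stand apart, and 44 of the orange points lie to the right of 0.

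Synaptic and disease lists that share members with the FMRP-bound list also held more members on the higher side. Autism risk genes had 5 of 53 higher at an unadjusted p under 0.05 (9.43%, against 3.73% of all genes) and 0 lower. Their median was 0.05, and Grin2b, Wdfy3 and Chd8 were among the 5. Postsynaptic density genes had 4 of 39 higher (10.3%) and 0 lower, with a median of 0.04. Beside Grin2a and Grin2b these were the AMPA receptor subunit Gria4, with 60.6, 56.1 and 22.3 CPM in KO and 51.5, 45.7 and 16.8 in WT, and the scaffold Homer2 (0.29 ± 0.10, adjusted p = 0.615). Presynaptic genes had 2 of 40 higher (5%) and 0 lower. The synaptic vesicle calcium sensor Syt1 held 3399, 2657 and 725 CPM in KO and 2714, 2211 and 511 in WT, a difference of 0.37 ± 0.11 (adjusted p = 0.593).

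Genes of the translation machinery and of growth signalling had medians near 0. Over all genes, 3.73% were higher and 3.29% lower at an unadjusted p under 0.05. Translation factors had 1 of 50 higher (2%) and 0 lower (median 0.05). Cytosolic ribosomal proteins had 3 of 79 lower, Rps9, Rpl35 and Rpl38, and 0 higher (median -0.04). That share of 3.8% lower is close to the share over all genes. Of the 39 mTOR pathway genes tested, 3 were higher (7.69%) and 1 lower (2.56%), with a median of 0.04. Rragc, a GTPase that signals amino acids to mTOR, held 53.5, 50.3 and 44.8 CPM in KO and 62.3, 69.9 and 54.6 in WT, with no overlap (-0.33 ± 0.09, adjusted p = 0.593). Chromatin modifiers had 3 of 79 higher (3.8%) and 1 lower (median 0.02), and splicing factors 3 of 67 higher (4.48%) and 2 lower (median 0.04). Nuclear-encoded respiratory chain genes had 2 of 73 higher (2.74%) and 0 lower (median -0.00).

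Marker genes of cell types gave small and partly opposite shifts, none past the adjusted threshold. Astrocyte markers had 4 of 19 higher at an unadjusted p under 0.05 (21.1%, against 3.73% of all genes) and 0 lower, with a median of 0.12. The list median was -0.00 for HHT 1, 0.22 for HHT 2 and 0.15 for vehicle. Summed CPM overlapped, at 5112, 4843 and 5008 in KO and 4714, 3882 and 5318 in WT, with KO below WT in vehicle. Slc1a2, the astrocytic glutamate transporter, held 2429, 2330 and 716 CPM in KO and 2006, 1665 and 536 in WT (0.39 ± 0.09, adjusted p = 0.525). Oligodendrocyte markers had 4 of 21 lower (19%, against 3.29% of all genes) and 0 higher, with a median of -0.08. Sox10, the transcription factor of that lineage, held 62.2, 60.7 and 167 CPM in KO and 82.7, 73.6 and 198 in WT (-0.31 ± 0.08, adjusted p = 0.593). In input, Slc1a2 differed by 0.11 ± 0.26 and Sox10 by 0.04 ± 0.13 (adjusted p = 0.998 each). Precursor markers of the same lineage had 2 of 11 higher, Tnr and Ptprz1, and 0 lower (median 0.13).

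A joint list of thalamus and striatum markers, regions that border hippocampus and cortex, had 6 of 22 lower (27.3%, against 3.29% of all genes) and 0 higher, with a median of -0.10. Of the lower members, only Rgs16 came from the thalamic part of the list. The striatal phosphatase inhibitor Ppp1r1b held 93, 87.8 and 101 CPM in KO and 132, 123 and 108 in WT (-0.37 ± 0.10, adjusted p = 0.593). The dopamine receptor Drd2 held 3.97, 4.32 and 1.84 CPM in KO and 6.32, 6.22 and 2.68 in WT (-0.58 ± 0.18, adjusted p = 0.601). In input, Ppp1r1b differed by -0.21 ± 0.13 and Drd2 by -0.45 ± 0.22 (adjusted p = 0.998 each). Of the other lower members, Rgs9 and Rgs16 were lower in KO in each library of the same label. Adora2a and Penk were higher in KO in vehicle, Adora2a at 5.77 CPM against 3.02 and Penk at 9.57 against 9.05. Of all 22 markers, 7 had a log2 fold change above 0 (31.8%, against 51% of all genes). Summed over the list, KO libraries held 658 to 752 CPM and WT libraries 685 to 826, so the sums overlapped. The median was -0.02 for the vehicle pair and -0.25 for HHT 2. The part of slice composition in these shifts was not tested.

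Other lists gave few members at an unadjusted p under 0.05, where 3.73% of all genes were higher and 3.29% lower. Excitatory neuron markers had 1 of 16 lower and inhibitory neuron markers 1 of 20 higher, while microglial, vascular and choroid plexus markers had 1 lower each, of 19, 21 and 11. Inflammatory genes had 2 of 26 lower, Socs3 and Cxcl10. Of these, Socs3, a feedback inhibitor of cytokine signalling, held 56.9, 55.1 and 52.8 CPM in KO and 73, 64 and 67.7 in WT, with no overlap (-0.31 ± 0.09, adjusted p = 0.593). Immediate early genes had 1 of 28 lower (median -0.07), endoplasmic reticulum folding genes 1 of 35 higher (median 0.09), and region markers of hippocampus and cortex 1 of 19 lower. GABA-A receptors (13 tested), nuclear noncoding RNAs (12) and heat shock genes (21) had 0 in either direction.

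**Figure D5:**
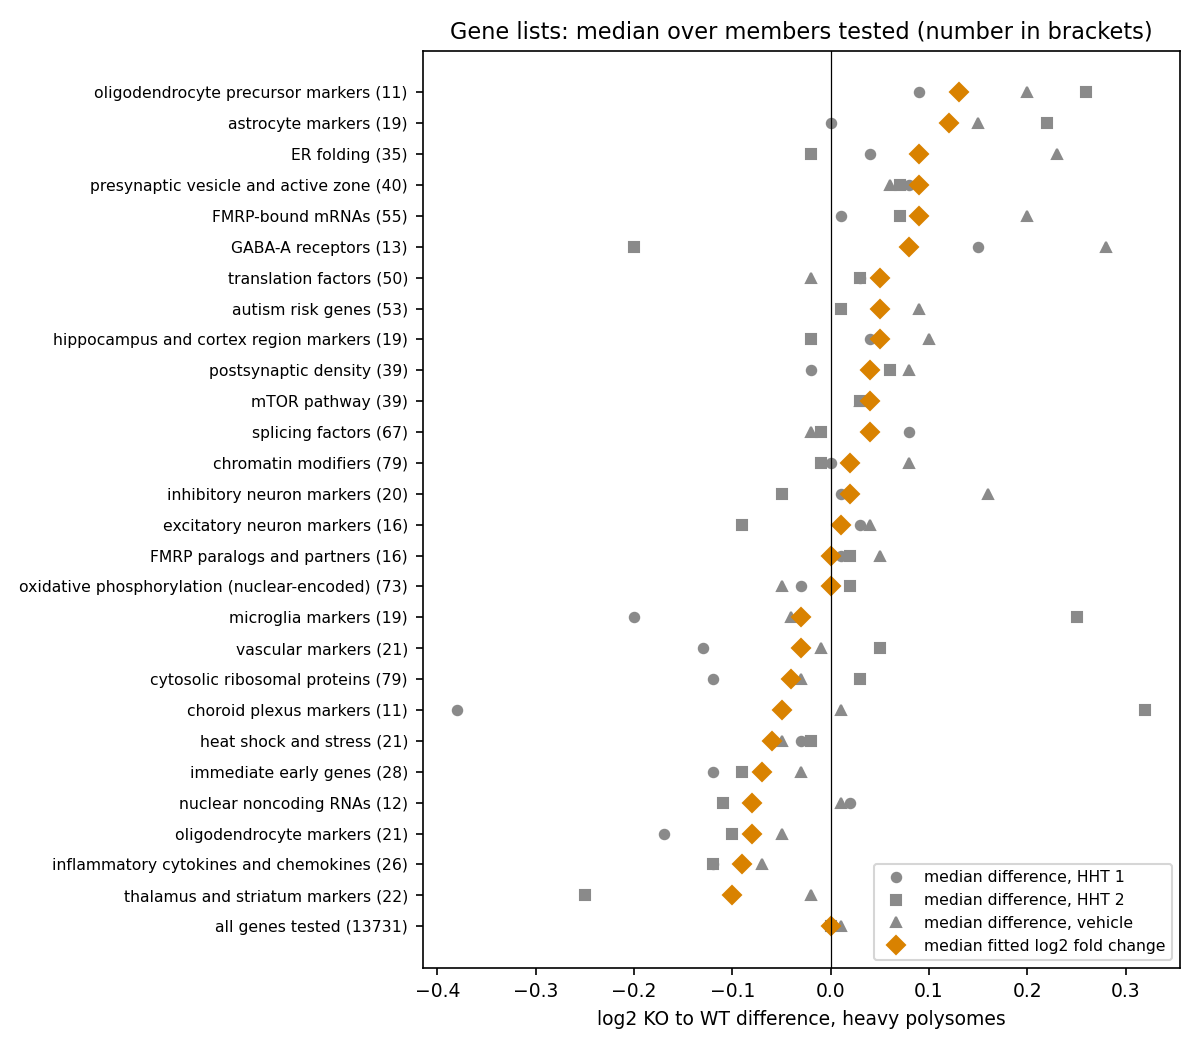
Median log2 KO to WT difference over the tested members of 27 gene lists and over all genes, in heavy polysomes: orange diamonds are medians of fitted fold changes and grey symbols medians for HHT 1, HHT 2 and vehicle libraries of the same label. Orange medians lie between -0.10 and 0.13. For several lists the HHT 1 and HHT 2 libraries lie on opposite sides of 0, among them choroid plexus, microglial and vascular markers and GABA-A receptors.

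Among genes of at least 5 CPM with an unadjusted p under 0.05 whose genotypes did not overlap, the largest positive and negative differences were modest. Symbols of predicted gene models (Gm followed by digits, or ending in Rik) were left out. The called genes that rose did not meet this rule. The highest that did was Mrpl36, a protein of the mitochondrial ribosome, with 7.94, 6.22 and 5.51 CPM in KO and 5.14, 3.73 and 3.18 in WT (0.72 ± 0.20, adjusted p = 0.593). Cpsf4, a subunit of the mRNA 3' end processing complex, followed with 6.42, 8.92 and 5.38 CPM in KO and 4.35, 4.69 and 4.36 in WT (0.65 ± 0.20, adjusted p = 0.593). The other 8 positive ones, between 0.47 and 0.63, were Samd5, Mkx, Arl13b, Zfp369, Zkscan16, Arl5b, Slc13a5 and Smim15, among them a GTPase of primary cilia (Arl13b) and a citrate transporter (Slc13a5). Below Fmr1, the lowest was Nkx6-2, a homeobox factor of the oligodendrocyte lineage, with 5.09, 5.05 and 5.38 CPM in KO and 8.69, 8.52 and 6.2 in WT (-0.61 ± 0.17, adjusted p = 0.593). Pdcd5, an apoptosis-linked protein, held 6.31, 4.42 and 5.64 CPM in KO and 7.64, 9.09 and 7.54 in WT (-0.59 ± 0.18, adjusted p = 0.603). The other 7, between -0.54 and -0.47, were Rassf4, Oxnad1, Rrp36, Zfp511, Znhit3, Mreg and Macrod1. The rule of no overlap passes over genes with a large HHT response, whose vehicle and HHT libraries differ more than the genotypes do.

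The difference between genotypes was compared between fractions of the same lysates. The KO effect in heavy polysomes minus that in medium polysomes passed for 0 of 13948 genes by edgeR, with 744 at an unadjusted p under 0.05, and for 0 by DESeq2. In input alone, 0 of 13972 genes passed in the same model, with 368 at an unadjusted p under 0.05. For Mrpl36 the heavy minus input difference was 0.48 ± 0.28 (adjusted p = 0.953). On the 18-library scaling, Grin2a held 52.4, 16.6 and 25.6 CPM in KO input against 43.8, 17.4 and 16.9 in WT input, so HHT 2 ordered the genotypes the other way. In medium polysomes it held 51.1, 35.4 and 17.1 CPM in KO and 50.4, 22.5 and 11.5 in WT, with KO higher in each library of the same label. A p above the threshold does not show that the fractions behaved alike.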

How the data were processed

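Heavy polysome, medium polysome and input RNA was sequenced from 200 ng per library. Per the submitters' processing notes, the authors used Trimmomatic 0.32, Bowtie2 2.1.0, RSEM 1.2.11, DESeq2 1.16.1 and mm10; the sources used here do not give the annotation. The deposited table of estimated counts per gene (RSEM) was rounded to whole numbers. A second deposited table, named TPM by the authors but summing to more than 1000000 in some libraries, was used as deposited, as a score per length. The sources used here do not give whether either table was adjusted for batch.

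Genotype was tested on the 6 heavy libraries with treatment as covariate (3 residual degrees of freedom) by edgeR 4.0.16 in R 4.3.3: TMM scaling, filterByExpr, quasi-likelihood F-test and Benjamini-Hochberg adjustment over all genes tested, threshold 0.05. CPM are TMM-scaled. Differences between fractions used 12 libraries with lysate as block. DESeq2 1.42.0, limma 3.58.1, other scalings and filters and leaving out libraries were tried. A test on simulated counts was run first. A fold on sums of counts used an exact (Clopper-Pearson) interval. Coordinates are GENCODE M21 (mm10); promoter sequences are from RefSeq GRCm38.p6, where 3 of 3 genes looked up matched.

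Genes named were Fmr1, Fxr1, Fxr2 and Setd2, all genes past the threshold, and up to 3 members per list by p. Also named were the 10 largest differences in each direction among genes of at least 5 CPM, unadjusted p under 0.05 and no overlap. Symbols of predicted gene models were left out of those 10. The members, lists and rules were chosen with earlier results of these data known, and lists were described by counts and medians without a set test. The 13 mitochondrially encoded mRNAs listed were not analysed here. Values of some single genes are not reported here. Deviations of HHT 1 from HHT 2 correlated between KO and WT at r = 0.0182 across genes, so equal numbers were not treated as pairs. The totals of 6226237 to 11008211 counts per library limit the precision of low genes.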

Additional observations from a re-analysis of the deposited data

Results flagged for a closer look

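The KO effect on Lrch4 differed between fractions of the same lysates: heavy minus input was 3.07 ± 0.33 on the log2 scale (edgeR, adjusted p = 0.0265), a test of the difference itself. KO was higher than WT in 3 of 3 heavy libraries and lower in 3 of 3 input libraries compared by label. The overlapping model Gm20605 had -0.66 ± 0.20 in the same test (adjusted p = 0.953), opposite in sign, and the summed CPM of both models overlapped between genotypes in heavy and input libraries. Groups of 3 or fewer libraries were too small for an outlier check.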

How the results depend on the processing

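The count of 4 genes for KO against WT in heavy polysomes was also 4 with DESeq2, RLE factors, total counts, no filter and limma; DESeq2 replaced Lrch4 and Hba-a2 by Grin2a and Pcdh19. It was 2 among genes of at least 5 CPM (Fmr1 and Gm7120), 0 in the HHT libraries alone and 0 in one fit of 18 libraries, and 0 to 9 when single libraries were left out. Fmr1 stayed between -2.0 and -1.55 and passed in 9 of 15 alternatives, Gm7120 in 8 of 15, Hba-a2 in 7 of 14 and Lrch4 in 6 of 14. Among these alternatives, the HHT libraries alone and the fits without either vehicle library rest on the same HHT libraries. Heavy minus input called 0 to 2 genes and heavy minus medium 0 to 2 without single lysates. Without single HHT libraries genotype × treatment called 0 to 1. The count of FMRP-bound mRNAs higher at an unadjusted p under 0.05, an alternative added after the data were seen, was 10. It became 3 in the HHT libraries alone, 0 in one fit of 18 libraries, and 3 to 13 without single libraries. Over all genes, the count higher at that level was 512 in the main fit and 375 in the HHT libraries alone. It was 167 in one fit of 18 libraries and 333 to 837 without single libraries. With replicate number as a block, KO against WT called 6 genes (adding Grin2a and Pcdh19), and genotype × treatment 3 (Gm7367, Pcdhga3 and Rn45s); without the lysate block, heavy minus input called 1 and heavy minus medium 0. The sign turned for Fxr1 (-0.24 without WT HHT 1 to 0.11 without WT HHT 2), Ttr (-0.47 without WT HHT 2 to 0.08 without WT HHT 1), Snhg1 (-0.63 without WT HHT 1 to 0.01 without WT HHT 2) and Rian (-0.00 in the HHT libraries). Of 27 list medians, 13 changed sign in some alternative; that of FMRP-bound mRNAs stayed between 0.05 and 0.12. The cause was not tested. With 2 HHT pools and 1 vehicle pool per genotype and a median SE of 0.134, small differences could not be resolved.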

Other observations

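Among the 15 genes with the smallest p, chosen after their values were seen, several outside the lists differed without passing the adjusted threshold in the edgeR fit. Pcdh19, a protocadherin of synapses, held 147, 145 and 28.5 CPM in KO HHT 1, HHT 2 and vehicle, and 114, 91.3 and 17.8 in WT. KO exceeded WT within each treatment, the log2 difference was 0.54 ± 0.10 (adjusted p = 0.281), and DESeq2 gave 0.0296. Dyrk3, a kinase that dissolves stress granules, held 13.3, 12.7 and 35.1 CPM in KO and 22.4, 24.5 and 43.7 in WT (-0.65 ± 0.13, adjusted p = 0.393). Dyrk3 stood at 0.23 ± 0.17 in input, and heavy minus input was -0.88 ± 0.23 (adjusted p = 0.953).

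The neuregulin receptor Erbb4 held 22, 22.6 and 4.98 CPM in KO and 14.4, 12.5 and 3.85 in WT (0.68 ± 0.14, adjusted p = 0.393), while its input difference was -0.15 ± 0.35. Fzd3, a Wnt receptor of axon guidance, held 185, 192 and 57.3 CPM in KO and 135, 147 and 44.9 in WT (0.40 ± 0.08, adjusted p = 0.393). Ndrg1, a stress-responsive gene of myelinating cells, held 94.9, 111 and 251 CPM in KO and 133, 135 and 342 in WT (-0.40 ± 0.08, adjusted p = 0.393). Tmem86a and Lnp were higher by 0.69 ± 0.15 and 0.47 ± 0.10, and Ralgds was lower, at -0.35 ± 0.08. For Pcdh19, Erbb4 and Fzd3 the HHT libraries held more than the vehicle libraries in both genotypes, and for Dyrk3 and Ndrg1 they held less.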
